A study of Mus musculus with 2 samples.

Results

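Phosphofructokinases and the enzymes that set their activity were followed in mouse cells given an agent labelled S180 and in mouse cells given DMSO, the solvent control. The genes were Pfkl, Pfkm and Pfkp (6-phosphofructo-1-kinase), Pfkfb1, Pfkfb2, Pfkfb3 and Pfkfb4 (the bifunctional enzymes) and Fbp1 and Fbp2 (fructose 1,6-bisphosphatase), which are 9 of 37072 gene names on the array. They were taken as every probe whose gene name in the scanner files equals 1 of these symbols, which gave 20 probes. The family was selected on the S180 minus DMSO differences of some of its probes, which were already known, so its differences are a description and carry no test.

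The data were 2 arrays of total RNA labelled with Cy3, 1 for S180 and 1 for DMSO, so that no group has a replicate and no p-value is given. What S180 is, how much was given, for how long and to which cells is not in the labels. The 2 arrays shared a slide and a scan, and 61.91% and 60.57% of their non-control spots were well above background on the S180 and the DMSO array, with 0 saturated spots. A level below is the log2 of a probe's processed signal minus the 75th percentile of its array, and a difference is S180 minus DMSO on that scale. A probe was called measured when the scanner software flagged it well above background in S180 and in DMSO alike, as it did 16 of the 20 probes and 32680 of 56602 probes in all. The error of a single difference was the SD between replicate spots of other probes, 0.035 for bright probes (262 replicated probes), 0.076 for those of middling brightness (5 probes) and 0.268 for dim ones (10 probes), in 3 classes of equal size by mean level. Variation between cultures, RNA extracts or labelling reactions is not in that error. The scanner software's own error of each signal, carried to the difference, was 0.20 to 0.25 for the 16 measured probes of the family. For bright and middling probes it was well above the spot SD printed below.

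Phosphofructokinase commits glucose carbon to glycolysis by phosphorylating fructose 6-phosphate to fructose 1,6-bisphosphate. The enzyme is a tetramer of subunits known as liver type (Pfkl), muscle type (Pfkm) and platelet type (Pfkp), and most tissues mix them. Its strongest activator, fructose 2,6-bisphosphate, is made and broken down by the 2 active sites of each PFKFB enzyme, while Fbp1 and Fbp2 run the reverse step of gluconeogenesis. In many mammalian cells low oxygen and HIF raise Pfkl, Pfkp, Pfkfb3 and Pfkfb4.

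The values come from 60-base probes, and different probes of a gene read different stretches of its transcripts. The probes that separate Pfkl and Pfkp from the other genes are shown here with those of Pfkm, Pfkfb3 and Pfkfb4 for contrast, each written 5′ to 3′ as the scanner files give it. A probe whose position covers more than 60 bases of the genome crosses a splice junction and is printed whole, and of the others the first 30 bases are printed. Capitals mark the printed part of the longest unbroken run, 45 bases in all, that a probe shares with the stretch before the Pfkl start site.
Pfkl A_51_P310896: ccgcaccttgagcatagacaagggtttctg
Pfkl A_55_P2934717: gggctgctgttcaccaaagtctgtttgact
Pfkl A_55_P2938364: atgaactccacttgtCCCAGAAACTTCAGT
Pfkp A_66_P108602: ttttgtaacatagttatttatcagcacttt
Pfkp A_51_P378856: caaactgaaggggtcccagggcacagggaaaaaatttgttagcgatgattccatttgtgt
Pfkp A_55_P2595372: tttaagacatgagtctatggaggagacagt
Pfkp A_52_P223083: cgaaagatccaaggcaaacaaaacatccaa
Pfkp A_65_P04184: ggactataccaaatactgatttgagtgtta
Pfkm A_51_P117995: acaggctgggtctctctagtgctacggcta
Pfkfb3 A_51_P212491: tggctttaattgttcattggttcggggcct
Pfkfb3 A_52_P362917: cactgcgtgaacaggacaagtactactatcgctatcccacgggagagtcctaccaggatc
Pfkfb4 A_55_P1992959: ttatcctggttttcacttgtgcattgcact
No pair of the 20 probes shares more than 9 bases in a row. The probes were compared only with each other and not with the transcripts of any gene, so their specificity was not tested. Exons, introns and untranslated regions were not annotated here.

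Across the family the signals of the liver and platelet subunits were higher in S180, those of the muscle subunit, Pfkfb1 and Pfkfb3's brighter probe lay near the median probe, and those of Pfkfb2 and Pfkfb4 lay less than 1.5-fold below and above it. Of the 16 measured probes 5 were higher in S180 by 2-fold or more, and 0 were lower by as much. Among all measured probes 0.63% were at least 2-fold higher and 0.15% at least 2-fold lower. All 5 belong to Pfkl and Pfkp. At 1.5-fold the count was 7 higher and 0 lower, against 3.21% and 1.67% of all measured probes, and the 7 are every measured probe of those 2 genes. The median difference was 1.29 over the 8 measured probes of the 1-kinase subunits and -0.04 over the 7 of the PFKFB enzymes, beside 0.00 over all measured probes, and no test of that contrast was possible with 1 array per group.

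**Figure D1:**
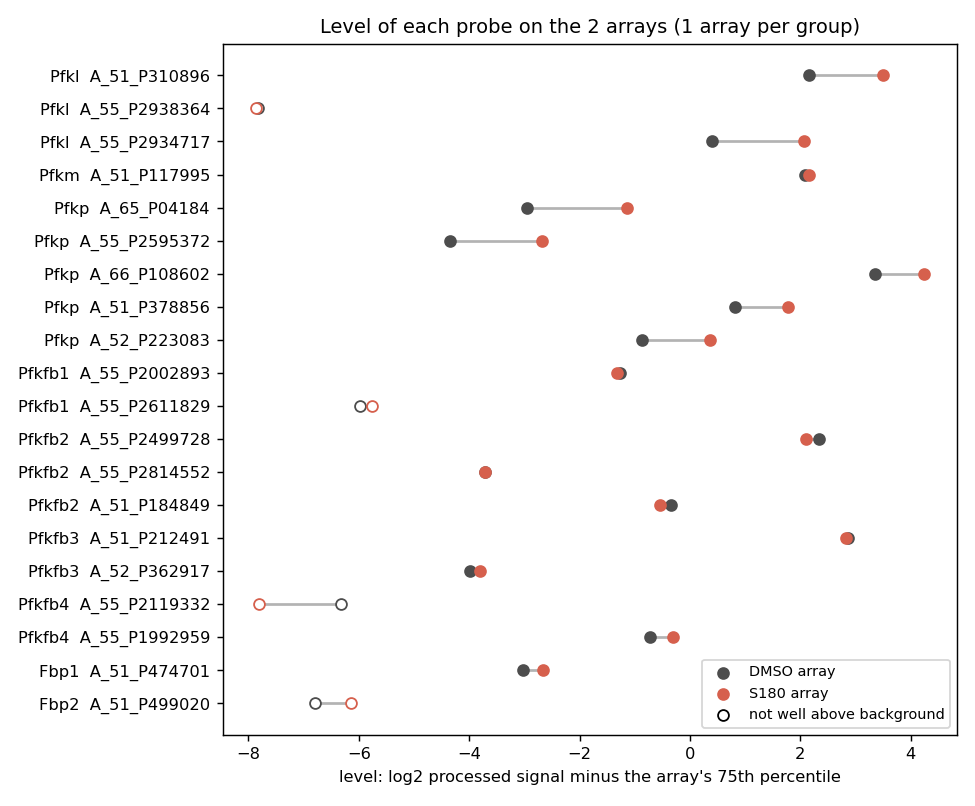
Level of each of the 20 probes on the DMSO array (grey) and the S180 array (red), as log2 processed signal minus the array's 75th percentile, with open circles for probes not well above background. Among filled circles the wide gaps with the S180 point to the right are those of Pfkl and Pfkp, whereas the paired points of Pfkm, Pfkfb1, Pfkfb2 and Pfkfb3 nearly coincide. Gaps between open circles, such as those of Fbp2 and the upstream Pfkfb4 probe, give no fold. Levels of different probes are not comparable.

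Pfkl, the liver-type subunit, is read by 2 measured probes. The probe for its RefSeq mRNA, at chr10:77450926-77450985 (build mm9, as are all probe positions), had a signal of 6978.3 in S180 and 3321.2 in DMSO. Its level was 3.50 against 2.15, a difference of 1.35 (spot SD 0.035), or 2.55-fold higher in S180. Counted from the highest difference it ranked 74 of the 32680 measured probes. The other measured probe, drawn from a cDNA clone and lying 19431 bases upstream at chr10:77470357-77470416, had signals of 2588.1 and 986.0 and a difference of 1.67, or 3.19-fold higher in S180. Both probes therefore put Pfkl higher in S180, and they differ from each other by 0.32. Of the 4441 genes with 2 measured probes, 82.5% had a smaller gap.

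The remaining Pfkl probe, for an Ensembl transcript, was not well above background on either array, with signals of 2.7 and 3.3. It shares a run of 45 bases with the stretch just before the Pfkl start site in the RefSeq promoter table. The file places 43 of its 60 bases, fewer than that run, at chr10:77463425-77463467. The promoter table is on another build, and the file's position was not reconciled with it. The probe gives no fold.

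Pfkp, the platelet-type subunit, is read by 5 probes, all measured and all higher in S180. The 3′-most probe, for RefSeq transcript variant 2 at chr13:6580589-6580648, had signals of 11657.0 on S180 and 7680.7 on DMSO. Its difference was 0.88 (spot SD 0.035), or 1.84-fold. The splice-crossing probe for transcript variant 1, within chr13:6581718-6583872, read 2108.5 and 1312.2, a difference of 0.97 or 1.95-fold. These probes for the curated mRNAs thus lay just short of 2-fold and close to each other.

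The other 3 Pfkp probes target a predicted RefSeq variant and a pair of Ensembl transcripts, and their differences were larger. The predicted variant, at chr13:6588296-6588355, had signals of 789.6 and 409.0 and a difference of 1.23, or 2.35-fold (spot SD 0.076). One Ensembl transcript, at chr13:6585194-6585253, had signals of 95.6 and 36.7 and a difference of 1.66, or 3.17-fold (spot SD 0.268). The probe farthest upstream, for the other Ensembl transcript at chr13:6601800-6601859, had signals of 277.3 and 96.5 and the largest difference of the family, 1.80 or 3.49-fold (spot SD 0.076), at rank 29 of the measured probes from the highest. Pfkp was thus higher in S180 on every probe, by an amount that ranged over 0.92 on the log2 scale. The Ensembl probes had the largest differences and were also the dimmest, so the stretch read and the brightness cannot be told apart. Among the 215 genes with 5 measured probes the median range was 0.41, and 94.9% had a smaller range than Pfkp. Normexp background correction started from mean spot signals and median background rather than processed signals, and added an offset that raises dim signals. With it the Ensembl probe at chr13:6585194-6585253 had a difference of 0.91 and fell short of 2-fold. The probe farthest upstream then stood at 1.33, and the 3′-most probe stayed at 0.88.

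**Figure D2:**
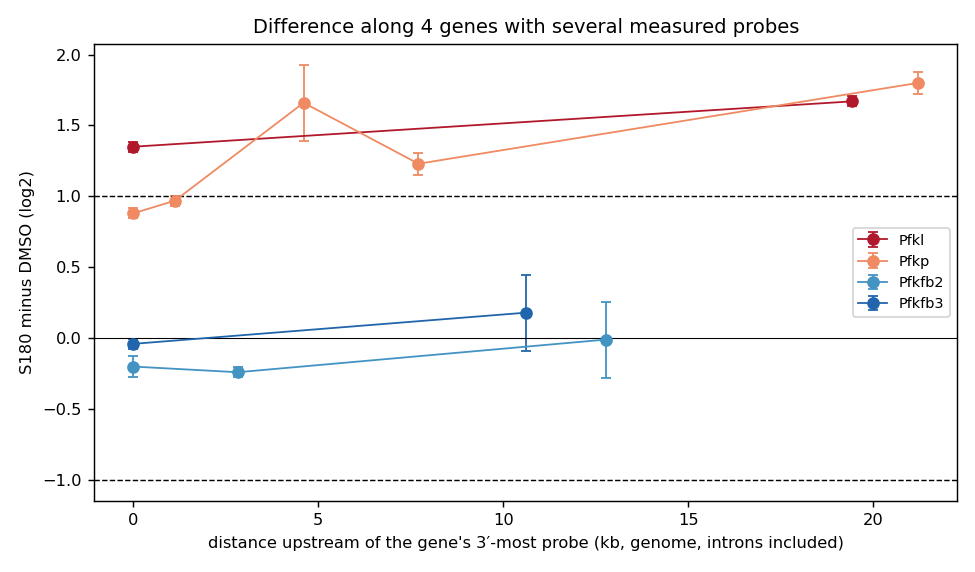
Difference (S180 minus DMSO, log2) of each measured probe against its distance in kb upstream of the gene's 3′-most probe, with introns included, for Pfkl, Pfkp, Pfkfb2 and Pfkfb3; bars are the spot SD for the probe's brightness and the dashed lines mark 2-fold. Pfkl and Pfkp lie at or above 0.88 along their length and Pfkfb2 and Pfkfb3 between -0.24 and 0.18.

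Pfkm, the muscle-type subunit, lay near the middle of the array. Its 1 probe, at chr15:97962713-97962772 for RefSeq transcript variant 2, had a signal of 2726.8 on S180 and 3186.9 on DMSO. The levels were 2.15 and 2.09, a difference of 0.06 (spot SD 0.035), and 59.4% of measured probes had a lower difference. The sign is set by the scaling, since the unscaled difference was -0.22 and that on the spike-in scale -0.30. Levels of the 3 subunits cannot be set against each other, because they come from different probes.

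The PFKFB enzymes make and remove fructose 2,6-bisphosphate, and none of their 7 measured probes was 1.5-fold apart. Pfkfb3, whose kinase activity far exceeds its phosphatase activity, had a signal of 4340.5 on S180 and 5441.1 on DMSO at its 3′-most probe, chr2:11393579-11393638. That is a difference of -0.04 (spot SD 0.035), in the middle of the measured probes, of which 41.1% were lower. Its splice-crossing probe, within chr2:11404189-11405602, was dim, with 44.0 and 47.3 and a difference of 0.18 (spot SD 0.268). Neither Pfkfb3 probe thus showed a difference near those of Pfkl and Pfkp.

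Pfkfb4, known from testis and as a HIF target in cancer cells, had the largest difference of the 4 PFKFB genes. Its probe at chr9:108934652-108934711 read 498.2 on S180 and 452.2 on DMSO, a difference of 0.42 (spot SD 0.076) or 1.34-fold, and 92.8% of measured probes had a lower difference. A probe 24197 bases upstream was not well above background on either array (2.8 and 9.4). On the spike-in scale the difference of the measured probe was 0.07.

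Pfkfb2, known as the heart isozyme and a substrate of several kinases, is read by 3 measured probes for different RefSeq variants. The brightest, at chr1:132588947-132589006, had signals of 2636.4 on S180 and 3791.6 on DMSO, a difference of -0.24 (spot SD 0.035). The probe at chr1:132586122-132586181 had 419.2 and 585.8 and a difference of -0.20 (spot SD 0.076). The last, at chr1:132598884-132598943, was dim at 46.7 and 57.1, with a difference of -0.01 (spot SD 0.268). The brighter pair was lower in S180 by 1.18-fold and 1.15-fold and lay below 0 under all 9 settings. These differences are within the SD of 0.288 over all measured probes, of which 13.5% and 17.3% had a lower difference. Pfkfb1, the isozyme of liver and skeletal muscle, had 246.9 and 309.9 at its 3′ probe, chrX:147078320-147078379, a difference of -0.05 (spot SD 0.076). Its other probe was not well above background on either array (11.3 and 11.9).

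The bisphosphatases of the reverse step were dim or undetected. Fbp1, the liver and kidney form, had signals of 97.2 on S180 and 92.2 on DMSO at chr13:62966175-62966234, with a difference of 0.36 (spot SD 0.268) that was 0.00 on the spike-in scale. Fbp2, the muscle form, was not well above background on either array (8.7 and 6.7) and gives no fold.

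**Figure D3:**
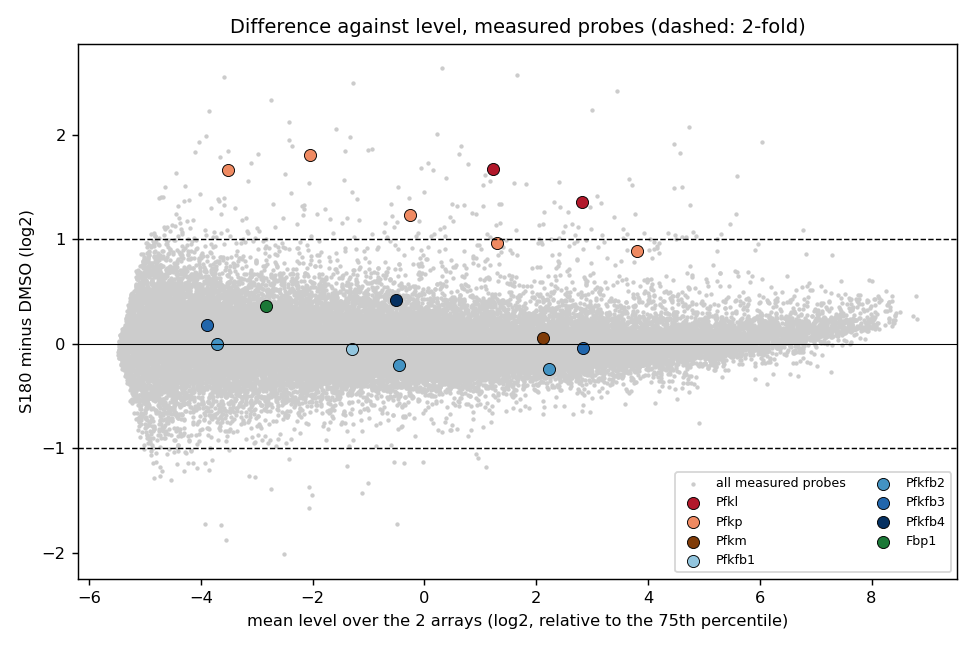
Difference (S180 minus DMSO, log2) against mean level for all 32680 measured probes (light grey) and for the 16 measured probes of the family (coloured by gene); dashed lines mark 2-fold. The Pfkl and Pfkp points sit at the upper edge of the cloud at dim and bright levels alike, and the other family points lie inside it.

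Leaving out the scaling or scaling to spike-ins moves all differences together, and so it bears on every sign near 0. Quantile normalization moves probes unequally. It took the aldolase Aldoa from 0.46 to 0.14 and the RefSeq probe of Pfkl from 1.35 to 1.36. Without scaling the median measured probe lay at -0.28, and on 8 Agilent spike-in transcripts at -0.35. Relative to the median probe, the 7 Pfkl and Pfkp probes lay at 0.84 or higher under all 9 settings that keep these probes. In absolute terms the number at least 2-fold higher was 4 without scaling and 3 on the spike-in scale, where the RefSeq probe of Pfkl lay just under 2-fold and the curated RefSeq probes of Pfkp stood at 0.53 and 0.61. On that scale 9 of the 16 measured probes lay above 0.

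**Figure D4:**
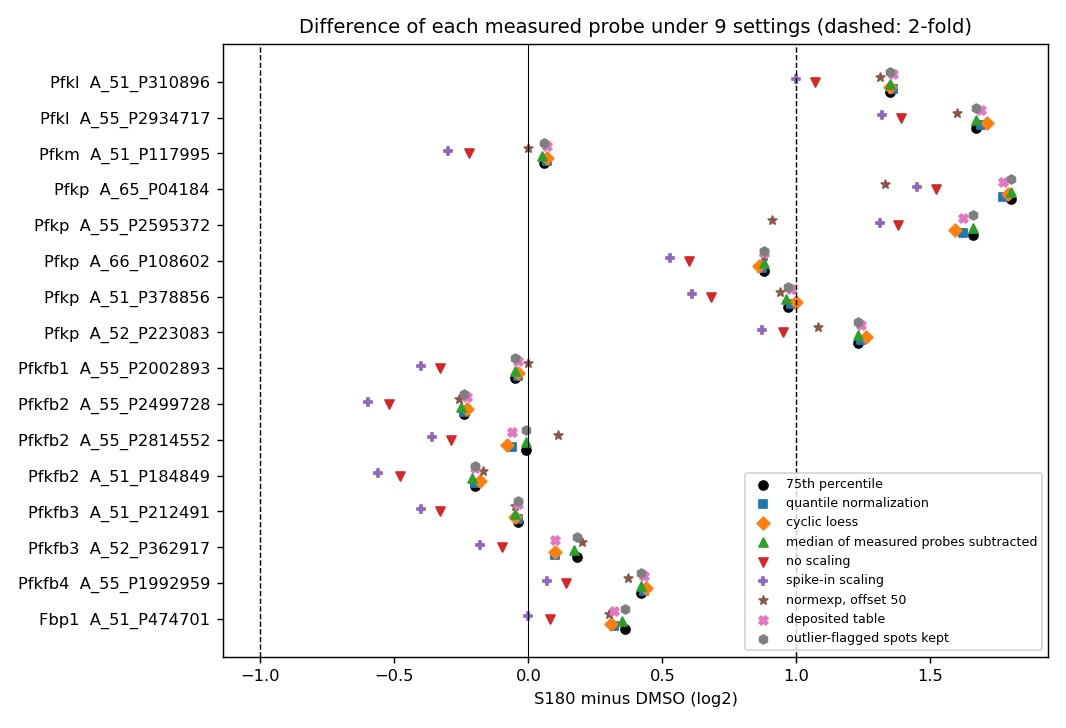
Difference (S180 minus DMSO, log2) of each of the 16 measured probes under 9 settings, 1 symbol per setting; dashed lines mark 2-fold. The symbols for no scaling and spike-in scaling lie to the left of the main setting by about the shift of the median probe, those for normexp lie farther left still for Pfkp A_55_P2595372 and A_65_P04184, and all symbols of Pfkl and Pfkp stay above 0.5.

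Pfkl and Pfkp were also compared by the sequence before their start sites. The RefSeq promoter table (build GRCm38.p6) holds windows for all 9 genes, 18 in all since some genes have several starts, and the 250 bases before each start were searched on both strands for ACGTG and GCGTG, the core letters of the hypoxia response element. A CACGTG counts once on each strand. The windows of Pfkl and Pfkp are shown because both genes were higher in S180, and those of Pfkfb3 because it was not. Capitals mark the motif on either strand.
Pfkl, minus strand, chr10:78009808-78010057: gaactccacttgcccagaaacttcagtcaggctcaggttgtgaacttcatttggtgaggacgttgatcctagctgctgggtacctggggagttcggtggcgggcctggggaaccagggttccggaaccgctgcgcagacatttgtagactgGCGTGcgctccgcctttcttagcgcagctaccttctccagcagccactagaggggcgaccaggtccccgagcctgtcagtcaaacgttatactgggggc
Pfkp, minus strand, chr13:6648772-6649021: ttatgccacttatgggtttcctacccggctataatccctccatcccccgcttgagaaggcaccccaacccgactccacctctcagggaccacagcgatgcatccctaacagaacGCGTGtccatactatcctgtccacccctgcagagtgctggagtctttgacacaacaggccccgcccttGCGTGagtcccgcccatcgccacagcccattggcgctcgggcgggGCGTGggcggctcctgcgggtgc
Pfkfb3, upstream start, minus strand, chr2:11553930-11554179: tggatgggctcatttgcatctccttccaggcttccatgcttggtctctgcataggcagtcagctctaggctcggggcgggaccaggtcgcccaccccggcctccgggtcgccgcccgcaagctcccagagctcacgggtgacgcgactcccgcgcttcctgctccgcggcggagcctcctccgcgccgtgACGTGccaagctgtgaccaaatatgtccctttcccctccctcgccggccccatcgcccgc
Pfkfb3, downstream start, minus strand, chr2:11502091-11502340: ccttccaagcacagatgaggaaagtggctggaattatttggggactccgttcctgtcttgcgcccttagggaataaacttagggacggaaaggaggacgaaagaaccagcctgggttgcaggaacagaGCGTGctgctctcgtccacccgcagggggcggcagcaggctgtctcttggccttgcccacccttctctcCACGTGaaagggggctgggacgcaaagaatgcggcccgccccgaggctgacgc
Pfkl holds GCGTG 1 time and Pfkp 3 times, and both Pfkfb3 windows hold a match as well. Of all 32851 windows of this length 16.6% hold ACGTG, 28.2% hold GCGTG and 38.6% hold either. Of the 18 family windows 13 hold either, from 8 of the 9 genes, Fbp1 being the exception. Some windows of a gene overlap, and a GCGTG site of Pfkm is counted in more than 1 window. The share over all genes was not computed, so the gene count has no background beside it, and enrichment was not tested. The letters are therefore present in the windows of genes that were higher in S180 and of genes that were not.

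The enzymes that make or use fructose phosphates next to phosphofructokinase were followed as a list, each gene by its brightest probe. Of 12 measured members 0 were 2-fold apart and 1 was at least 1.5-fold higher, where 0.582% of all measured genes were at least 2-fold higher, 0.168% at least 2-fold lower, 3.08% at least 1.5-fold higher and 1.71% at least 1.5-fold lower. The one was Aldoc, an aldolase that splits fructose 1,6-bisphosphate, with signals of 485.7 on S180 and 367.7 on DMSO and a difference of 0.68 or 1.61-fold, which was 0.33 on the spike-in scale. At the other end, Gfpt2, which draws fructose 6-phosphate into hexosamine synthesis, had a difference of -0.28. The list's median was 0.19, but it was -0.09 without scaling and -0.17 on the spike-in scale.

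Kinases known to phosphorylate PFKFB or phosphofructokinase isozymes, the AMPK subunits, AKT kinases and protein kinase A among them, were measured for all 15 members. Of these 0 were 1.5-fold apart in either direction, and the differences ran from -0.18 for Prkaa2, a catalytic AMPK subunit, to 0.17 for Prkab2, a beta subunit. The list's median was -0.04, and all members lay below 0 without scaling and on the spike-in scale.

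Of the other gluconeogenesis enzymes 4 of 7 were measured. Pck2, the mitochondrial phosphoenolpyruvate carboxykinase, had signals of 3589.5 on S180 and 2175.1 on DMSO and was 2.01-fold higher in S180. Its log2 difference was 0.72 without scaling, 0.65 on the spike-in scale and 0.97 with normexp, each short of 2-fold, and it was also just short with the median of measured probes subtracted. Slc37a4, the glucose 6-phosphate transporter of the endoplasmic reticulum, was 1.65-fold higher, with a log2 difference of 0.72 that was 0.37 on the spike-in scale. The smallest difference, 0.17, was that of the glucose 6-phosphatase gene G6pc3, and it turned to -0.11 without scaling and -0.18 on the spike-in scale. Pck1 and G6pc, the forms known from liver, were not well above background on either array.

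Because the isozymes are named after tissues, markers of those tissues were read as well. None of 5 liver markers and none of 3 kidney tubule markers was well above background on both arrays. Of the 5 skeletal muscle markers 3 were measured, with differences of -0.15 for Mylpf, -0.06 for Myh4 and 0.47 for Tnnt3. Myh4 and Tnnt3 were dim, with signals on S180 and DMSO of 35.0 and 44.3 for Myh4 and 27.2 and 23.9 for Tnnt3. The Tnnt3 difference was 0.27 with normexp and 0.11 on the spike-in scale. Ckm was not well above background on either array, and Acta1 was so on S180 only, with signals of 17.4 and 11.5. All 5 melanocyte markers were measured, with signals for Mlana of 215584.0 on S180 and 233546.0 on DMSO, and their differences lay between -0.01 and 0.26. Their median of 0.17 was -0.03 with quantile normalization, -0.07 in the deposited table, -0.12 without scaling and -0.19 on the spike-in scale. Of the testis germ cell markers 3 of 4 were measured and dim, with a median of 0.54. Tnp1 and Prm2 were higher in S180, by 0.61 and 0.54, and Ddx4 was 2.06-fold lower, with signals of 22.2 and 55.6 and a log2 difference that was -0.26 with normexp. All 3 fibroblast markers were measured, with differences from -0.83 for Col1a2 to -0.02 for Col1a1. Of the 3 epithelium markers Epcam was measured, dim and with a difference of -0.89 that was -0.05 with normexp, and 4 of 5 leukocyte markers were measured, with a median of 0.00. Whether the makeup of the cells had a part in the Pfkl and Pfkp differences was not tested. In such bulk RNA, fewer cells of a type and less RNA per cell cannot be told apart.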

How the data were processed

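Total RNA of 1 sample given S180 and 1 given DMSO was hybridised to 1 Agilent mouse array each, grouped by the agent in the labels. The deposited intensities are processed signals of Agilent Feature Extraction 10.7.1.1, with spatial and multiplicative detrending switched on, per the file headers. The deposited table holds log2 values. The labels and headers do not say how the authors made it. Of its probes, controls included, 98.31% (S180) and 97.93% (DMSO) of 56745 lay within 0.01 of quantile-normalised log2 signals, and both columns had a median of 5.27.

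Control spots and 120 (S180) and 195 (DMSO) outlier-flagged spots were left out. Log2 signals were averaged per probe and the 75th percentile of the array was subtracted. A gene on a list was read by its brightest probe. The scaling and the 2-fold calls were tested on simulated data with the same noise level at every spot. The simulated arrays shared their background flags and had no outlier flags, so those filters were not tested. Python 3.11.15, numpy 2.4.6, pandas 2.3.3, R 4.3.3 and limma 3.58.1 were used. Spot SDs came from probes with 10 spots, at least 8 of them kept. Alternatives were other scalings, normexp (offset 50), the deposited table, other filters and fold thresholds of 1.5 and 3.

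The genes, lists and marker sets were chosen with earlier results of these data known. All 9 genes are named with every probe, and of each list the members at least 2-fold apart and those with the largest and smallest difference. A further gene is named where its absence or level is the point and was then chosen after its values were seen. Arrays were few, which limits the precision. Promoter sequences are those of RefSeq, build GRCm38.p6.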

Additional observations from a re-analysis of the deposited data

How the results depend on the processing

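In the main setting 5 probes of the family were at least 2-fold higher and 0 lower. The counts were also 5 and 0 with cyclic loess, the deposited table, quantile normalization, the median of measured probes and flagged spots kept. Keeping only probes above the median signal of all 56602 probes left the family's 16 measured probes in, dim ones included. Its counts could not change there. The count higher was 4 with normexp and without scaling, and 3 with spike-in scaling and at 3-fold. Without a filter on dim probes 1 was 2-fold lower, the Pfkfb4 probe that was not well above background on either array. The family's median difference of 0.39 became 0.11 without scaling, 0.03 on the spike-in scale and 0.29 without the filter. Over all measured probes, 206 were higher and 49 lower, 80.8% of the calls being higher. These became 94 and 262 without scaling (26.4% higher), 73 and 397 on the spike-in scale (15.5%), 106 and 11 with normexp and 2486 and 1139 without the filter. They were 1048 and 545 at 1.5-fold and 41 and 5 at 3-fold. Among the 28301 probes above the median signal 175 were higher and 27 lower. No paired analysis was possible because each group has 1 array, and no array could be left out. Dim signal limits the Ensembl probe of Pfkp at chr13:6585194-6585253, Fbp1, 1 probe of Pfkfb2 and 1 of Pfkfb3, whose spot SD was 0.268.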

Other observations

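In both Pfkl and Pfkp the probe farthest upstream gave a larger difference than the 3′-most probe, by 0.32 and 0.92 on the log2 scale. In both genes it was also the dimmer of the pair. With normexp the upstream and 3′-most probes stood at 1.6 and 1.31 for Pfkl and at 1.33 and 0.88 for Pfkp. Over all 7227 genes with at least 2 measured probes on 1 strand of 1 chromosome, the upstream-most minus the 3′-most difference had a median of 0.02 and was above 0 in 53.5%. For probes at least 5000 bases apart, as those of Pfkl and Pfkp are, the median was 0.07 over 4186 genes and 61.9% were above 0. Among the 148 genes whose 3′-most probe was at least 1.5-fold higher in S180, which include Pfkl and Pfkp, it was above 0 in 51 (34.5%), with a median of -0.19. That set was taken on the 3′ value, a choice that by itself favours lower values at the other probe. Pfkfb2 and Pfkfb3 had values of 0.19 and 0.22, each resting on 1 dim probe. These are descriptions of 2 arrays, with no test.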
